A study of Homo sapiens with 10 samples.

Results

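MYC, PRDM1 and the related genes MYCN, MYCL, BCL6, XBP1 and KLF2 are tied to the transcription factor IRF4 (interferon regulatory factor 4) in B cells and myeloma, and were asked about here in melanoma cells. The list was chosen for that lymphoid role. Transcripts are listed by Ensembl identifier without gene names, and 3 of 187626 transcripts were tied to a gene of the list: ENST00000377970 and ENST00000621592 of MYC, and ENST00000369096 of PRDM1. Thus 2 of the 7 genes were measured, through these transcripts alone and not through all transcripts of each gene. The RNA of MYCN, MYCL, BCL6, XBP1 and KLF2 and the peaks at these genes were not analysed here, and only their promoter sequences were searched. At MYC, the binding of IRF4 was also examined, within 50 kb of the gene.

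All samples came from 501Mel, an established human melanoma cell line. RNA-seq of polyadenylated RNA compared 3 libraries of cells that received small interfering RNA against IRF4 (siIRF4) with 3 libraries that received a control small interfering RNA (siCTRL). ChIP-seq of IRF4 tagged with eGFP (enhanced green fluorescent protein) gave 2 replicate peak lists, so the mapped protein is the tagged one. The line is the only one in the series, and the labels give neither the time after transfection, the level of the tagged protein nor whether RNA libraries came from separate cultures, so p-values measure only the spread between these libraries.

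IRF4 binds DNA weakly alone, and in lymphocytes it occupies composite sites with ETS or AP-1 family partners. During the differentiation of B cells into plasma cells it activates PRDM1, the gene of the zinc finger repressor BLIMP-1, and opposes BCL6, the repressor that maintains germinal centre B cells. XBP1 then builds the secretory machinery of the plasma cell. In myeloma cells IRF4 and MYC sustain each other's expression. MYC is a helix-loop-helix leucine zipper factor that pairs with MAX and drives ribosome production, metabolism and cell growth. In melanocytes IRF4 is known for its work with MITF in pigmentation.

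Library totals lay between 129989698 and 203758441 estimated counts. Between 41421 and 44493 transcripts reached 1 TPM (an abundance corrected for length, of which a library holds 1e+06) in a library. The level of IRF4 itself and the markers of the melanocyte lineage were not analysed here, so neither the knockdown nor the cell identity was checked on a gene. The labels did not part the libraries along the first principal component of log2 CPM (estimated counts out of 1e+06 of the library), which carried 33.5% of the variance. On that component siIRF4 replicate 1 (-110) lay with siCTRL replicates 1 (-128) and 3 (-175), and siCTRL replicate 2 (132) lay with siIRF4 replicates 2 (197) and 3 (83.9). Groups below are those of the labels, and results are also given without siIRF4 replicate 1 and siCTRL replicate 2. Whether these 2 libraries carry each other's label was not tested.

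Both ChIP replicates listed IRF4 peaks over MYC. The examined window ran over chr8:128698000-128804000 in hg19, which extends 50 kb beyond each end of a MYC span of 128748000 to 128754000, rounded to whole kilobases. MYC is read in the direction of rising coordinates, so the start of the span is the promoter end. RefSeq places MYC on chromosome 8 from 127735434 to 127742951 in GRCh38.p14, a different build that was not mixed with the peak coordinates, and there CASC11 precedes MYC and PVT1 follows it. Each list held 2 peaks in the window: the first covered the start of the span and the second lay inside it.

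In replicate 1 the first peak ran over chr8:128747000-128748956, a width of 1957 bases, with its centre 22 bases before the start of the span. Its score, the authors' own value for a peak, was 316.06, which ranked 1525 among 7568 peaks. The next peak of this replicate ran over chr8:128749003-128751409, with a score of 250.05 and rank 2276, its centre 2206 bases inside the span. Both therefore scored above the median of 173.68 of that list.

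In replicate 2 the first peak ran over chr8:128747525-128749732, a width of 2208 bases centred 628 bases inside the span. It scored 787.74, ranked 808 among 12831 peaks, and stood above 93.7% of that list. The next peak ran over chr8:128749851-128751635, with a score of 168.09 and rank 11217. The replicates thus differed in the balance of the pair: the peak further into the gene stood above 69.9% of the replicate 1 list and above 12.6% of the replicate 2 list. Scores rank peaks within a list and are not compared in size between lists.

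The 2 peaks of replicate 1 both overlapped peaks of replicate 2. The first peaks of the lists shared 1432 bases, which is 73.2% of the replicate 1 peak and 64.9% of the replicate 2 peak. The second peaks shared 1559 bases, or 64.8% and 87.3%. The second peak of replicate 1 also shared 730 bases with the first peak of replicate 2, so the boundary between the paired peaks lay at different places in the lists.

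The paired peaks were separated by 46 bases in replicate 1 and 118 bases in replicate 2. A neighbour at that distance or nearer was found for 40 peaks (0.529%) in replicate 1 and 246 peaks (1.92%) in replicate 2. These include the MYC peaks, whose own gaps set the distance, so the shares are only descriptive. Whether the pair is a single region split by the peak calling was not tested. Together the pair covered 4364 bases of the window in replicate 1 and 3993 bases in replicate 2. Of 28587 windows of the same 106 kb length laid end to end over chromosomes 1 to 22 and X, 965 (3.38%) held 2 or more peaks in both lists and 4357 (15.2%) held at least 1 peak in both. The MYC window was chosen for its gene and carries no test.

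Around this pair the lists differed. Within 500 kb of the MYC span, replicate 1 listed no other peak, and its nearest further peaks lay 1180 kb before and 2700 kb after the span. Replicate 2 listed 5 further peaks there, all on the far side of MYC, where PVT1, a long noncoding RNA gene, is the neighbour. They began 68.0, 112, 157, 203 and 252 kb after the end of the span. The strongest of them ran over chr8:128956547-128958286, with a score of 1468.06 and rank 146, above the score of the peak over the start of MYC in the same list. Scores of the other 4 ranged from 150.06 to 520.56. None of the 5 overlapped a peak of replicate 1, whose list begins at a score of 100.01 against 150.01 in replicate 2. With 2 replicates, whether this stretch is bound was not tested.

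**Figure D1:**
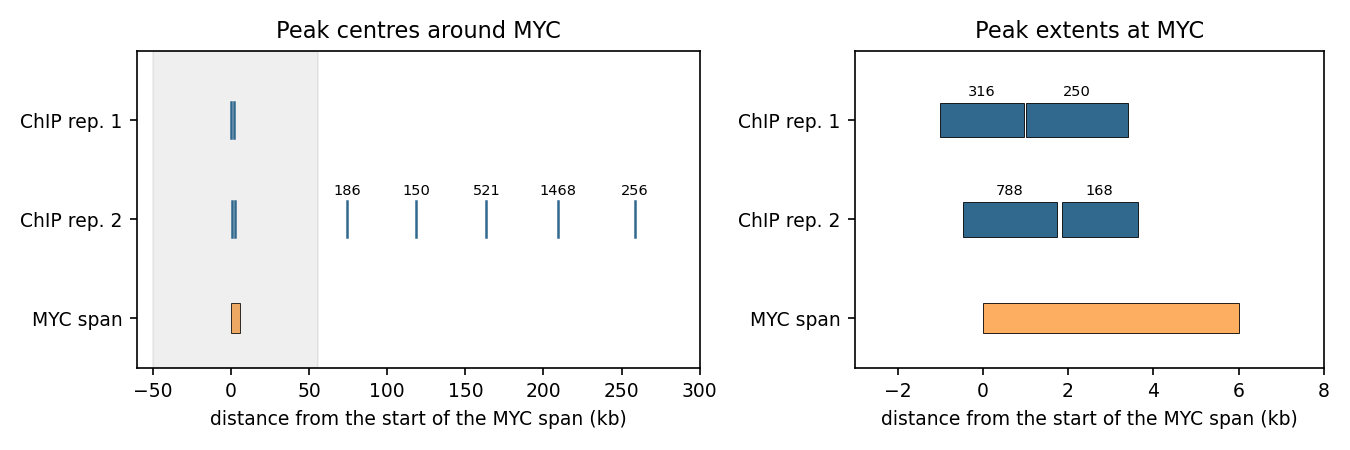
IRF4-eGFP ChIP peaks by replicate against the distance in kb from the start of the MYC span. On the left lines mark peak centres, with scores over peaks outside the grey window (50 kb beyond each end of the span); on the right bars give the extent of the 2 peaks of each list with their scores. Both lists hold a peak over the start of MYC and another inside it, and only replicate 2 lists the 5 peaks after it.

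MYC RNA was abundant, and its summed level varied by 1.3-fold between the lowest and the highest of the 6 libraries. The sum of the 2 MYC transcripts was 63.5, 67.0 and 73.7 CPM in siIRF4 replicates 1, 2 and 3. It was 80.1, 69.3 and 61.6 CPM in siCTRL replicates 1, 2 and 3. Both the highest and the lowest value came from siCTRL, and the siIRF4 values lay inside that range. On the TPM scale the sum ran from 40.9 to 55.0. Its mean of 46.9 TPM lay above the mean of 98.4% of the listed transcripts, each taken singly. The means of ENST00000377970 and ENST00000621592 by themselves lay above 97.0% and 96.8%.

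The comparison of siIRF4 with siCTRL asked whether MYC RNA changes when IRF4 is targeted. The groups averaged 68.1 ± 5.17 and 70.3 ± 9.30 CPM (SD, n = 3 each). The log2 fold change of the sum was -0.05 (SE 0.14), with a 95% interval from -0.38 to 0.28, that is from 0.766 to 1.22 times the control level. The edgeR quasi-likelihood p was 0.728 before adjustment, and the adjusted p rounded to 1. The estimate was -0.05 (-0.51 to 0.41) without siIRF4 replicate 1 and siCTRL replicate 2, and without siCTRL replicate 1 it was 0.06 (-0.29 to 0.41).

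The balance between the 2 MYC transcripts varied far more than their sum. ENST00000377970, of 2351 bases, had 42.9, 43.4 and 35.1 CPM in siIRF4 replicates 1, 2 and 3. It had 54.8, 19.7 and 16.3 CPM in siCTRL replicates 1, 2 and 3. Replicate 1 of siCTRL was the highest of all and the other two siCTRL libraries were the lowest, so the siIRF4 values lay between them.

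ENST00000621592, which is 15 bases longer, ran the other way. It had 20.6, 23.7 and 38.6 CPM in siIRF4 replicates 1, 2 and 3. It had 25.3, 49.6 and 45.3 CPM in siCTRL replicates 1, 2 and 3. Low values of this transcript came from siIRF4 replicates 1 and 2 and siCTRL replicate 1, the libraries where the other transcript was high, and the groups overlapped.

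ENST00000377970 therefore held 67.5%, 64.7% and 47.6% of the summed estimated count in siIRF4 replicates 1, 2 and 3. Its share was 68.4%, 28.4% and 26.4% in siCTRL replicates 1, 2 and 3. The group means were 59.9 ± 10.8% and 41.1 ± 23.7% (SD, n = 3 each), a difference of 18.8 percentage points. An exact two-sided permutation test gave p = 0.4, or 0.7 adjusted over 3 such tests, where 3 against 3 libraries cannot go below 0.1. Over the 6 libraries the coefficient of variation was 42.1% for ENST00000377970 and 36.3% for ENST00000621592. It was 9.89% for their sum. Single transcripts whose mean CPM lay within 2-fold of these had median coefficients of variation of 14.9%, 15.1% and 13.7%. The last of these sets single transcripts beside a sum, which is an unlike measure.

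**Figure D2:**
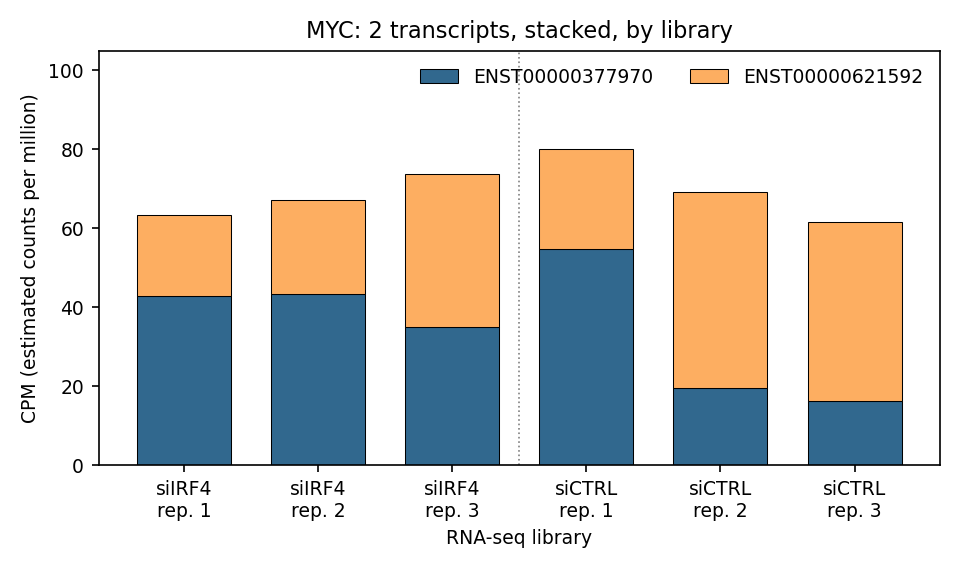
CPM of the 2 MYC transcripts, stacked, in each of the 6 RNA-seq libraries. The bar heights lie between 61.6 and 80.1 CPM, while the share of ENST00000377970 runs from 26.4% to 68.4%.

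Neither MYC transcript passed the test taken by itself. The log2 fold change was 0.42 (SE 0.47, interval -0.70 to 1.55) for ENST00000377970 and -0.55 (SE 0.31, interval -1.29 to 0.19) for ENST00000621592, and both edgeR adjusted p-values rounded to 1. Over all transcripts, 0 of 83831 (0%) passed an edgeR adjusted p of 0.05, and 1791 (2.14%) had an unadjusted p under 0.05. ENST00000377970 moved most when siCTRL replicate 1 was left out. Without that library the log2 fold changes of the transcripts were 1.18 (interval 0.63 to 1.74) and -0.79 (-1.44 to -0.15), with unadjusted edgeR p-values of 0.00229 and 0.0247, which 2.17% of transcripts reached at 0.05 in that fit, and adjusted p-values that rounded to 1. ENST00000621592 moved furthest down without siIRF4 replicate 3, to -0.81 (-1.61 to -0.01). The edgeR unadjusted p was 0.0478, a threshold of 0.05 being passed by 2.3% of transcripts there. Among siCTRL libraries, replicate 1 had the highest ENST00000377970 value (54.8 CPM) and the lowest ENST00000621592 value (25.3 CPM). Among siIRF4 libraries, replicate 3 had the highest ENST00000621592 value (38.6 CPM). Both libraries were picked for how far they moved an estimate, so these intervals and p-values are descriptions and no test. The transcripts ran in opposite directions, so their changes are not separate findings. Without siIRF4 replicate 1 and siCTRL replicate 2 the log2 fold changes were 0.11 (-1.44 to 1.65) and -0.23 (-1.16 to 0.71). Estimated counts divide fragments that fit both transcripts, and the part of this division in the varying shares was not tested.

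The only PRDM1 transcript measured was scarce, and its level split the libraries without following the labels as given. The estimated count of ENST00000369096, a transcript of 5164 bases, was 9.59, 151 and 154 in siIRF4 replicates 1, 2 and 3. It was listed at 0 in siCTRL replicate 1, and was 208 and 13.4 in siCTRL replicates 2 and 3. The libraries siIRF4 replicates 2 and 3 and siCTRL replicate 2 thus held at least 151 counts, and the others at most 13.4. The high libraries are those that lay on the positive side of the first principal component, and the part of what sets that component in the PRDM1 level was not tested.

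On the CPM scale the high libraries were close to each other, at 1.11, 1.02 and 1.02 in siIRF4 replicates 2 and 3 and siCTRL replicate 2. The low ones stood at 0.067 in siIRF4 replicate 1 and 0.103 in siCTRL replicate 3. The value of 0 in siCTRL replicate 1 allows up to 0.0196 CPM (3 counts, counting error only). In TPM the highest value was 0.312, so even there the transcript was far below the level of each MYC transcript, whose means were 24.1 and 22.8 TPM. Its coefficient of variation over the 6 libraries was 98.7%, against a median of 36.4% among the 22351 transcripts with a mean CPM within 2-fold of it.

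The group means were 0.732 ± 0.578 CPM in siIRF4 and 0.375 ± 0.562 CPM in siCTRL (SD, n = 3 each), and the groups overlapped. The log2 fold change was 0.93 (SE 1.61, interval -2.92 to 4.77), with an edgeR unadjusted p of 0.583 and an adjusted p that rounded to 1. Groups without overlap were seen for 5928 of 83831 transcripts (7.07%), and none of the 3 MYC and PRDM1 transcripts was among them. Without siIRF4 replicate 1 and siCTRL replicate 2, the log2 fold change of PRDM1 became 4.40. These libraries were left out for their place on the first component, which the PRDM1 level follows, so that choice fixes the direction and size of this value, which is given as a description with no test. Without siCTRL replicate 2 alone it was 3.86 (-0.44 to 8.17), without siIRF4 replicate 1 alone 1.45, and without siCTRL replicate 1 alone 0.35. It was 0.47, 0.66 and 0.49 without siIRF4 replicate 2, siIRF4 replicate 3 and siCTRL replicate 3.

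**Figure D3:**
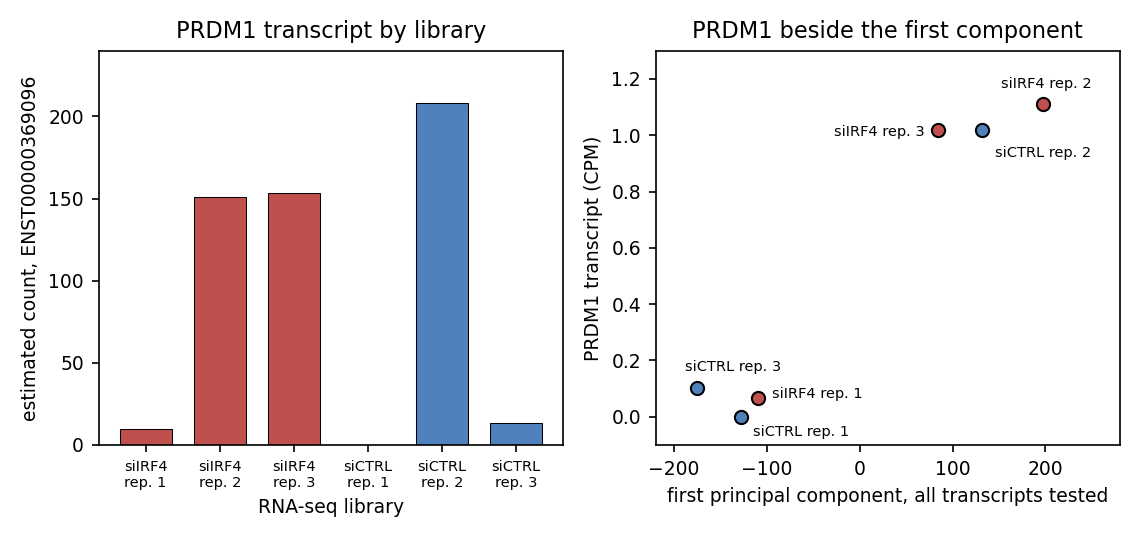
On the left, the estimated count of the PRDM1 transcript ENST00000369096 in each RNA-seq library; on the right, its CPM against the first principal component of all transcripts tested (red siIRF4, blue siCTRL). 3 libraries, of both labels, lie at 1.02 to 1.11 CPM and on the positive side of the component, and the others lie at or below 0.103 CPM.

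**Figure D4:**
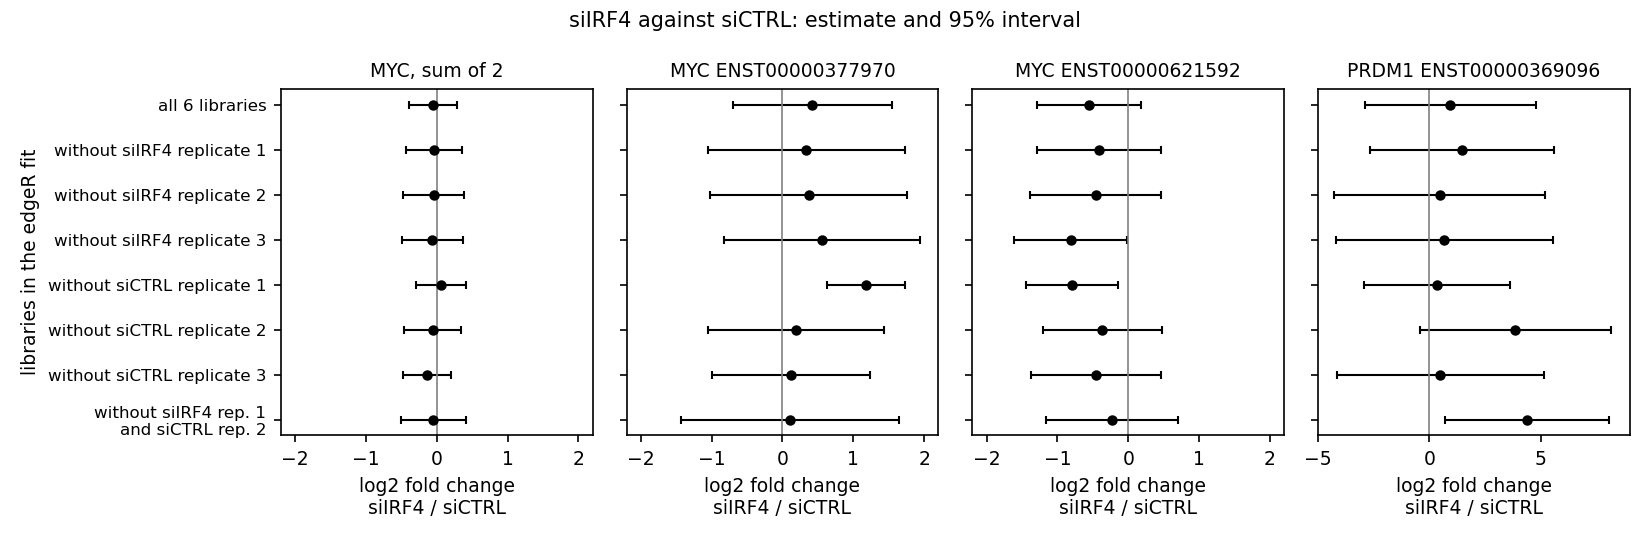
Log2 fold change of siIRF4 over siCTRL from edgeR for the sum of the MYC transcripts, each MYC transcript and the PRDM1 transcript, with 95% intervals, for all 6 libraries and with libraries left out. The sum of MYC stays between -0.14 and 0.06, and PRDM1 moves from 0.35 to 4.40 with the libraries that enter. The PRDM1 value of 4.40 is fixed by the choice of the libraries left out, so its interval is no test. Intervals with libraries left out are descriptions.

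PRDM1 lies on chromosome 6 from 105992690 to 106109938 in GRCh38.p14, and the RefSeq promoter table used here holds 2 starts for it, both inside that span. The 5′ end of the span was not searched, and which start makes ENST00000369096 was not settled. The promoter sequences used here held none for MYC, so of the 2 genes measured only PRDM1 is shown. The 250 bases before each start follow, with the match to the AP-1 motif in capitals.
PRDM1 start 1, chr6:106086086-106086335, + strand, GRCh38.p14: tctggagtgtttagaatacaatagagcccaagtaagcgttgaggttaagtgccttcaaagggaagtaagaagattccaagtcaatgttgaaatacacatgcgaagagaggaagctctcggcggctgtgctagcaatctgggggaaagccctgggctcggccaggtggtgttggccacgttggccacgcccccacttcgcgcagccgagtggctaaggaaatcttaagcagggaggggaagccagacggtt
PRDM1 start 2, chr6:106098691-106098940, + strand, GRCh38.p14: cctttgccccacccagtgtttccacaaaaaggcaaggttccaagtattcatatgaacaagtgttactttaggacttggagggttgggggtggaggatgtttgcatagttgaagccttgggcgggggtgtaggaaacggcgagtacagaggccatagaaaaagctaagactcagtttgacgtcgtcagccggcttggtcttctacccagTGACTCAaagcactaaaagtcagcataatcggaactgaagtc

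Both strands of the 300 bases from 250 before to 50 after each start were searched. The ETS-IRF composite GGAANNGAAA was found at neither start, against 2.82% of 35116 promoters of that length. The interferon-stimulated response element GAAANNGAAA was at neither (3.57% of promoters), nor was the AP-1-IRF composite GAAATGANTCA (0.162%) or the E-box CACGTG bound by MYC and MAX (7.26%). The AP-1 site TGANTCA, whose letters the AP-1-IRF composite includes, occurred at start 2 from 42 bases before the start, as TGACTCA, and 7.71% of promoters hold such a match. Over the 9 promoters of the 6 genes other than MYC, the AP-1 site occurred in 2, 1 of PRDM1 and 1 of BCL6, and each of the other motifs in 0. The promoter of MYC was not searched. The peaks at PRDM1 were not analysed here, because no position of this gene in the build of the peak lists was used.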

How the data were processed

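RNA-seq of 501Mel melanoma cells gave 6 libraries (siIRF4 and siCTRL, replicates 1 to 3, grouped by title), and ChIP-seq of eGFP-tagged IRF4 gave 2 peak lists, without the 2 inputs. The authors deposited estimated counts and TPM per Ensembl transcript, with length and effective length; kallisto, sleuth, Bowtie2 and the builds GRCh38 and hg19 are named in the submitters' processing notes, and their versions and settings are not given in the sources used here. The peak lists deposited by the authors give a position, a name beginning with MACS and a score, which neither the labels nor the files define; hg19 was taken for the window at MYC, and the lists themselves name no build.

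No table pairing transcripts with genes was used, so the design laid down for genes was fitted on transcripts, and only the 3 transcripts named in the choice of genes are reported. The 6 planned gene lists (MYC partners, MYC targets, unfolded protein response, plasma cell, BCL6 and KLF2 genes), the cell type markers, IRF4 and the genes most like each member were not analysed here. The genes and lists were chosen with earlier results of these data known. The rule for naming was every gene of the list and IRF4.

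Estimated counts were rounded and tested with edgeR 4.0.16 in R 4.3.3 (quasi-likelihood, TMM, filterByExpr, two-sided, Benjamini-Hochberg, threshold 0.05). The filter kept 83831 transcripts; the sum of the 2 MYC transcripts was tested in the same table with its rows merged. CPM was computed from deposited estimated counts without TMM factors. Standard errors are the absolute log2 fold change over the square root of F, and 95% intervals use the test's degrees of freedom. Principal components were taken on log2 CPM (prior count 2). The edgeR fit was tried on simulated counts with large changes in well expressed transcripts and far less spread than these libraries show. That trial checks the code and does not measure the power of the fit here. Alternatives were DESeq2 1.42.0, limma 3.58.1, RLE factors, other filters, a replicate block and libraries left out. Coordinates count from 1. Promoters are RefSeq's (GRCh38.p14).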

Additional observations from a re-analysis of the deposited data

How the results depend on the processing

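The count of 0 transcripts past an edgeR adjusted p of 0.05 stayed at 0 in 12 of 14 alternatives, in each of the 6 fits that left out 1 library among them; DESeq2 called 192 transcripts and limma on log2(TPM + 0.1) called 8, none of them a MYC or PRDM1 transcript, and the cause was not tested. The smallest adjusted p in any alternative was 0.318 for PRDM1 (without siIRF4 replicate 1 and siCTRL replicate 2, a choice that fixes its value), 0.954 for the MYC sum, 0.972 for ENST00000377970 and 0.876 for ENST00000621592. The log2 fold change of the MYC sum turned from -0.05 to 0.06 without siCTRL replicate 1 (range -0.14 to 0.06 over the 6 fits leaving out 1 library; the cause was not tested). With 1 library left out, ENST00000377970 ran from 0.12 to 1.18, ENST00000621592 from -0.81 to -0.36, PRDM1 from 0.35 to 3.86 and the difference in share from 11.5 to 32.5 percentage points, each in its first direction; the share without siIRF4 replicate 1 and siCTRL replicate 2 differed by 8.7 points. In limma on log2(TPM + 1) the PRDM1 value was 0.13, on a scale that shrinks low levels by construction. Without siIRF4 replicate 1 and siCTRL replicate 2, 10811 of 85498 transcripts had an edgeR unadjusted p under 0.05. With all 6 libraries the count was 1791 of 83831. The libraries left out were chosen by the first component, so the larger count follows in part from that choice and is no test.

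The replicate number as a block gave log2 fold changes of 2.24 for PRDM1, -0.04 for the MYC sum, 0.64 for ENST00000377970 and -0.53 for ENST00000621592, with 0 transcripts called. The main fit used no block because the labels state no pairing beyond the number. Deviations of same-numbered libraries from their group means correlated at 0.20, 0.24 and 0.038 across transcripts. Centring within groups of 3 ties these values to those of differently numbered libraries, which are not given. Whether the libraries are paired by number was therefore not settled. The window at MYC held 1 replicate 2 peak in the better-scoring 50% of that list, which holds fewer peaks by construction, and 3 with 100 kb on each side. Not run were the alternatives for IRF4, the gene lists and peaks at other genes. A mean of at least 1 CPM left PRDM1 untested. ChIP depth is unknown from the peak lists.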
